A study of Homo sapiens with 2 samples.

Results

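The genes of MHC class I antigen presentation were described in HEK293T cells, which descend from human embryonic kidney cells and carry the large T antigen of SV40. The 9 members were taken by symbol, each matched to 1 gene identifier, out of 57736 genes in the deposited tables. They were the heavy chain genes HLA-B, HLA-C, HLA-E and HLA-F, the light chain gene B2M, the peptide transporter genes TAP1 and TAP2, the tapasin gene TAPBP and the transactivator gene NLRC5. Of other heavy chain genes, HLA-G was read in a list of class I-like genes, and the rest were not analysed here. Poly(A)+ RNA of untreated cells, given as wild type in the labels and grown in DMEM with 10% FBS, was sequenced in 2 replicates that form 1 group. The results below are therefore levels of genes and differences between replicates, without any contrast of conditions. The labels do not say whether the replicates were separate cultures, so the spread between them may be technical.

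A class I molecule consists of a heavy chain, which holds a peptide in its groove, and of the invariant light chain beta-2-microglobulin, the B2M product. Peptides are cut by the proteasome in the cytosol, pumped into the endoplasmic reticulum by a transporter made of the TAP1 and TAP2 products, and loaded onto the heavy chain with the help of tapasin and of chaperones. The promoters of most of these genes carry a conserved enhanceosome of X and Y boxes, to which RFX, CREB/ATF and NF-Y proteins bind and which recruits NLRC5, and many also carry elements for NF-kappaB and for interferon regulatory factors (IRF). Class I molecules occur on most nucleated cells, whereas class II molecules occur mainly on professional antigen-presenting cells.

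The libraries held 10593491 estimated counts in replicate 1 and 10104118 in replicate 2. A count of 0 allows up to 3 counts at this depth, or 0.283 CPM in replicate 1 and 0.297 CPM in replicate 2. Such limits and the Poisson intervals below take in counting error alone. They leave out any added spread from PCR copies, which are not independent molecules. Of 5 genes known to be expressed in HEK293 lines, 4 had a row, and all 4 were detected, that is, had a TPM (a level scaled by transcript length and to a fixed total) of 1 or more in each replicate, from KRT8 at 8.07 to VIM at 338. The labels give kidney as the tissue, and 2 of 12 markers of differentiated or developing kidney passed the same threshold, namely PAX2 at 3.41 and LRP2 at 9.12, while 5 of the 12 had no counts. The summed TPM of 11 leukocyte markers was 6.22 in replicate 1 and 5.53 in replicate 2. CD3D, CD3E, MS4A1 and ITGAM had no counts in either replicate, and PTPRC, which encodes the common leukocyte antigen CD45, had 1 count in each.

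Promoter sequences were compared first, because regulation through the X and Y boxes is what these genes are best known to share. RefSeq promoters (GRCh38.p14, from 250 bases before to 50 bases after a start) were found for 7 of the 9 members. HLA-E and NLRC5 had no entry. The sequences below are the stretches before the start that hold the matches in the 3 most abundant members and in TAP1, written in the direction of the gene. Capitals mark an IRF core (AANNGAAA), a kappaB-type match (GGG, 2 bases of any kind, TT, 1 base of any kind and CC), and, where both occur with 15 to 25 bases between them, an X2 box (TGACG) and a Y box (ATTGG). All were searched on both strands, and IRF cores may overlap each other.

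HLA-B (chr6:31357246-31357366, minus strand): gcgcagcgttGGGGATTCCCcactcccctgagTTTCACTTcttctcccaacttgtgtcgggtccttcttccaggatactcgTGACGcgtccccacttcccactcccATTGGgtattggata
HLA-C (chr6:31272158-31272253, minus strand): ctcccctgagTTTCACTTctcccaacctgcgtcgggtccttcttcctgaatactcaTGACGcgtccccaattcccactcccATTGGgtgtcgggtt
B2M (chr15:44711365-44711482, plus strand): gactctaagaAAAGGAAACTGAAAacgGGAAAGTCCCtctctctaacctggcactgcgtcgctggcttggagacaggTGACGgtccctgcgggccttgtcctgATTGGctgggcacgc
TAP1 (chr6:32853757-32853848, minus strand): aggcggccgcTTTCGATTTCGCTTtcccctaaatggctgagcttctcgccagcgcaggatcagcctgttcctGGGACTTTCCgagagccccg

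An X2 box followed by a Y box was found in 3 members, HLA-B, HLA-C and B2M. The boxes stood 20 bases apart in HLA-B and HLA-C and 21 bases apart in B2M. The same arrangement was present in 0.447% of 35116 human promoters of the same length. These 3 genes also had the highest levels among the members, as given below, and whether the boxes had a part in this was not tested. An IRF core was found in all 7 members with a sequence, against 22.8% of all promoters. TAP1 has 2 starts in RefSeq, and its matches lie at 1 of them. A kappaB-type match was found in 4 members, HLA-B, B2M, TAP1 and TAPBP, against 5.68% of all promoters. The letters were settled after the sequences had been seen, a match is not a bound site, and a missing match says only that these letters were not in the window.

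The level of each member was examined next, to learn how much mRNA for each component these cells hold. Detection, a TPM of 1 or more in each replicate, was reached by 8 of the 9 members, beside 63.7% of 19391 protein-coding genes. The members spanned a wide range, from B2M, near the top of all protein-coding genes, to NLRC5, near the threshold.

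**Figure D1:**
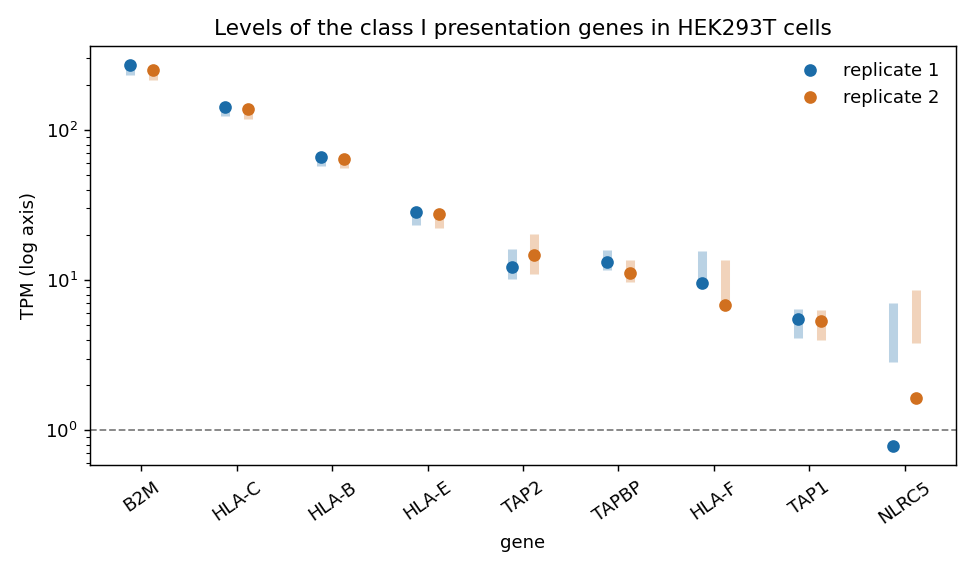
TPM of each member (log axis) in replicate 1 (blue) and replicate 2 (orange), with the deposited 95% intervals of the posterior mean as pale bars and a TPM of 1 as the dashed line. B2M lay highest at 271 and 252, and NLRC5 lay lowest at 0.78 and 1.63, below its bars.

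B2M (ENSG00000166710, chr15:45003556-45011049 in GRCh37, plus strand) encodes the light chain shared by all class I molecules. Its TPM was 271 in replicate 1 and 252 in replicate 2, a mean of 261 ± 13.7 (SD, n = 2), from 933 and 892 counts. It was the highest member in both replicates, and 98.1% of protein-coding genes had a lower mean TPM.

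Among the heavy chains, which together had a TPM of 245 in replicate 1 and 237 in replicate 2, the classical HLA-C and HLA-B genes accounted for most. HLA-C (ENSG00000204525, chr6:31236526-31239907, minus strand) presents peptides and is a major ligand of killer cell receptors. Its TPM was 141 and 138 in the replicates (140 ± 2.21, SD, n = 2), from 1471 and 1362 counts. HLA-B (ENSG00000234745, chr6:31321649-31334844, minus strand), also a classical peptide-presenting gene, had a TPM of 66.1 and 64.4 (65.2 ± 1.23, SD, n = 2), from 711.3 and 667 counts. HLA-C exceeded HLA-B by 2.14-fold in replicate 1 and by 2.15-fold in replicate 2, nearly the same ratio in both. This ratio and the shares that follow rest on the transcript lengths that the authors' program used. With the longest listed transcript as length the ratio was larger, with a mean TPM of 106 for HLA-C and 26.9 for HLA-B. HLA-C made up 58.0% ± 0.537 and HLA-B 27.1% ± 0.167 of the TPM of the 4 heavy chains (SD, n = 2).

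The non-classical heavy chains were lower. HLA-E (ENSG00000204592, chr6:30457286-30461971, plus strand) mainly presents leader peptides of other class I chains to natural killer cells. It had a TPM of 28.4 and 27.5 (27.9 ± 0.658, SD, n = 2), from 449 and 405 counts, which was 11.6% ± 0.0175 of the 4 heavy chains. HLA-F (ENSG00000204642, chr6:29690552-29706305, plus strand), a heavy chain with a restricted surface expression, had a TPM of 9.54 and 6.79 (8.17 ± 1.94, SD, n = 2), from 61.9 and 46.2 counts. HLA-F was the least reproducible heavy chain, with a coefficient of variation of 23.8% against 1.58% to 2.35% for the others, and it also had the fewest counts of the 4.

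The light chain was compared with the sum of the heavy chains, since the molecule holds one of each. B2M exceeded the summed TPM of the 4 heavy chains by 1.11-fold in replicate 1 and by 1.06-fold in replicate 2 (1.08 ± 0.0296, SD, n = 2). The heavy chain genes not analysed here would lower this ratio. It also rests on the transcript lengths the authors' program used, 509.5 and 541 nt for B2M and 1491 and 1492 nt for HLA-B. In estimated counts, which are not scaled by length, the ratio was 0.353, below 1.

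The genes of peptide transport and loading formed a middle group. TAP2 (ENSG00000204267, chr6:32789610-32806516, minus strand) had a TPM of 12.2 and 14.6 (13.4 ± 1.75, SD, n = 2), from 414 and 419 counts. TAP1 (ENSG00000168394, chr6:32812986-32821593, minus strand), which encodes the other chain of the transporter, had a TPM of 5.50 and 5.36 (5.43 ± 0.0990, SD, n = 2), from 107 and 99.2 counts. The ratio of TAP1 to TAP2 was 0.452 and 0.366 (0.409 ± 0.0609, SD, n = 2), so that the chains of this dimer were unequal in mRNA in both replicates, with the lower level at TAP1. In estimated counts, which favour the longer TAP2 transcripts, the ratio was 0.248. TAPBP (ENSG00000231925, chr6:33267471-33282061, minus strand), whose product tapasin tethers the heavy chain to the transporter, had a TPM of 13.3 and 11.1 (12.2 ± 1.56, SD, n = 2), from 309 and 248 counts. TAP2 lay below TAPBP in replicate 1 and above it in replicate 2, and their deposited intervals overlapped, so that the order of these genes was not resolved.

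NLRC5 (ENSG00000140853, chr16:57023397-57117443, plus strand), the transactivator of the class I promoters, was the lowest member. Its TPM was 0.78 in replicate 1 and 1.63 in replicate 2 (1.21 ± 0.601, SD, n = 2), on either side of the detection threshold. These values rest on 8 counts (exact 95% Poisson interval 3.45 to 15.8) and 17 counts (9.90 to 27.2). The intervals overlap, which by itself does not decide whether the counts differ. By the exact binomial test described below, no difference between the replicates was called (p = 0.0702, adjusted p = 0.440). Under the alternatives tried, its value moved by a larger factor than that of any other member. The mean TPM was 5.51 as the deposited posterior mean, and 0.254 if the longest listed transcript of 6822 nt is taken as the length in place of the 1415 and 1504 nt that the authors' program used. By the posterior mean NLRC5 lay above TAP1 (5.19) and below HLA-F (11.3). For NLRC5 this mean rests on the same 8 and 17 counts over 30 listed transcripts, against 107 and 99.2 counts over 4 for TAP1. By TPM, NLRC5 lay below TAP1 in both replicates.

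**Figure D2:**
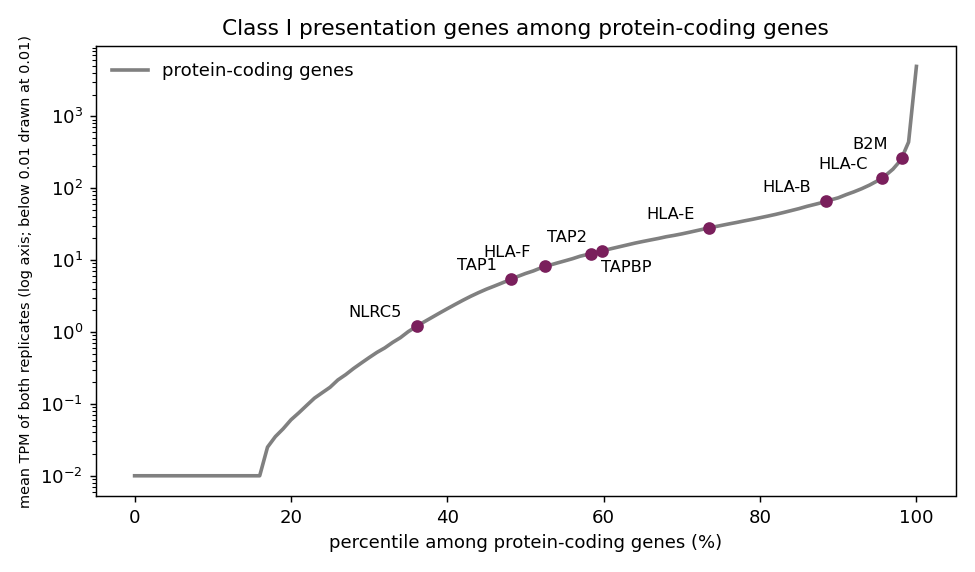
Mean TPM of both replicates (log axis) against the percentile among 19391 protein-coding genes (grey line), with the members as points. B2M stood at percentile 98.1, HLA-C at 95.6, HLA-B at 88.4 and HLA-E at 73.5, the transport and loading genes lay between 48.2 and 59.7, and NLRC5 stood at 36.1.

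Placed in order of the mean TPM, the members ran B2M, HLA-C, HLA-B, HLA-E, TAP2, TAPBP, HLA-F, TAP1 and NLRC5. Neighbours were taken as separated where neither the replicate values nor the deposited intervals overlapped, since 2 values against 2 cannot give an exact permutation p below 0.33. By this rule 5 of the 8 neighbouring pairs were separated. The steps from B2M to HLA-C (1.87-fold), from HLA-C to HLA-B (2.14-fold), from HLA-B to HLA-E (2.34-fold) and from HLA-E to TAP2 (2.08-fold) were of similar size, and the step from HLA-F to TAP1 was 1.5-fold. In replicate 2 the HLA-F TPM of 6.79 lay below its own deposited interval (7.40 to 13.6). The separation of HLA-F from TAP1 thus rests on an interval that does not hold the value ordered. TAP2 and TAPBP, TAPBP and HLA-F, and TAP1 and NLRC5 were not separated. With the longest listed transcript as the length, the steps from B2M to HLA-C and from HLA-F to TAP1 were lost. B2M then had a TPM of 107 and 106 and HLA-C one of 108 and 103 in the replicates. HLA-F had 5.54 and 4.30 and TAP1 had 5.47 and 5.23, so that the mean of HLA-F (4.92) lay below that of TAP1 (5.35). The step from HLA-B to HLA-E narrowed, with a mean TPM of 26.9 for HLA-B and 23.3 for HLA-E. That from HLA-C to HLA-B widened, with a mean TPM of 106 for HLA-C. The 9 members summed to 0.0548% of all TPM in replicate 1 and to 0.0521% in replicate 2.

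The replicates were then compared by their counts, to learn whether any member departed from what sampling of reads allows. By the exact two-sided binomial test with Benjamini-Hochberg adjustment over 17920 genes, 0 of the 9 members differed, beside 3.87% of all genes tested, and 0 had an unadjusted p under 0.05. The lowest p among the members was that of TAPBP, with 309 and 248 counts (log2 ratio of replicate 2 to replicate 1 of -0.24, exact p = 0.0513, adjusted p = 0.380). With total counts as library sizes this p was 0.0463 and the adjusted p was 0.36, by the same exact test. NLRC5 had the largest ratio of the members (log2 ratio 1.12, exact p = 0.0702, adjusted p = 0.440), and the same test gave HLA-F a log2 ratio of -0.34 (p = 0.212, adjusted p = 0.693). The test compares 2 libraries, and a p above the threshold does not show that their values were equal.

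Heavy chain genes are close relatives, so the share of their sequence that 50-nt reads cannot assign was measured. In windows of 50 nt over the listed transcripts, 25.7% of those of HLA-B, 5.79% of those of HLA-C, 4.95% of those of HLA-E and 21.2% of those of HLA-F also occurred in transcripts of other genes, on either strand. HLA-B and HLA-F shared most with a gene that overlaps them. For HLA-B, 12.9% of the windows matched the antisense pseudogene ENSG00000271581, which held 1.97 and 2.96 counts in the replicates. For HLA-F, 12.6% matched the antisense pseudogene ENSG00000225864, which held no counts. HLA-C shared 2.91% of its windows with HLA-B, and HLA-E shared 2.26% with HLA-G. Outside the heavy chains, TAP2 shared 20.2% of its windows, all of them with the overlapping gene ENSG00000250264 (0 and 5.02 counts), and TAP1 shared 10.7%, mostly with PSMB8-AS1 (no counts). TAPBP shared 4.65%, spread over 690 genes, with at most 1.09% matching any 1 of them. B2M and NLRC5 shared none. The counts of B2M, TAPBP and NLRC5 were whole numbers, and those of the other members were not. The posterior SD deposited by the authors, which measures how uncertain the sharing of reads is, was at most 0.284 times the square root of the count. No member thus passed 1.5 times. The share of all genes that pass was not computed, so this says nothing particular to the members. Reads of alleles that differ from the reference sequence were not examined.

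**Figure D3:**
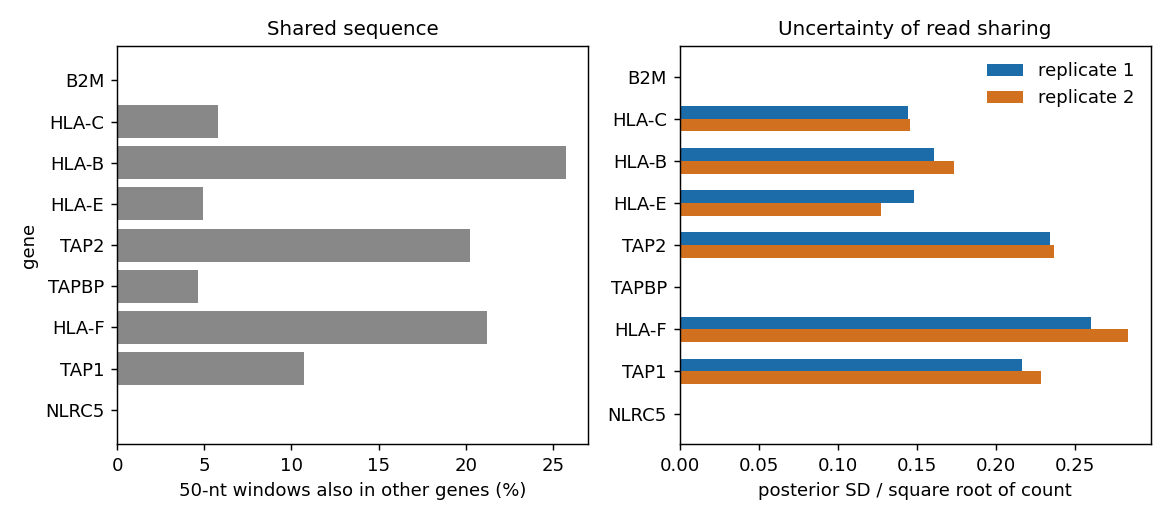
Left, percent of 50-nt windows of each member's transcripts that also occur in other genes; right, posterior SD of the estimated count divided by the square root of the count in replicate 1 (blue) and replicate 2 (orange). HLA-B had the highest percent of shared windows among the members, 25.7%, and HLA-F had the highest ratio, 0.284, while B2M and NLRC5 were at 0 in both panels.

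The other genes of the pathway were examined from peptide supply to regulation. Of 31 genes of the proteasome, trimming, loading and promoter lists, 27 were detected in the sense above, beside the 63.7% of protein-coding genes. All 3 genes of the constitutive catalytic proteasome subunits passed, from PSMB6 at 121 ± 6.75 to PSMB7 at 183 ± 6.94 (SD, n = 2). Of the immunoproteasome and PA28 genes, which are induced by interferon gamma in many cells, 3 of 5 passed, from PSMB10 at 21.1 ± 0.170 to PSME2 at 55.2 ± 1.81 (SD, n = 2). PSMB8 had no counts in either replicate, and PSMB9 had 1 and 3 counts (TPM 0.28 and 0.41). PSMB7 exceeded its immunoproteasome counterpart PSMB10 by 8.97-fold in replicate 1 and by 8.41-fold in replicate 2.

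PSMB8 and PSMB9 lie beside TAP1 and TAP2 within the class II region of chromosome 6. The RefSeq starts of TAP1 and PSMB9 are 488 bases apart, on opposite strands and pointing away from each other. The GENCODE annotation drawn below differs, since its PSMB9 gene begins 9680 bases from the start of TAP1 and spans the whole of TAP1. Within this cluster TAP1, with 107 and 99.2 counts, and TAP2, with 414 and 419 counts, stood above PSMB9 and PSMB8 in both replicates. TAP1 exceeded PSMB9 in TPM in each replicate, 5.50 against 0.28 and 5.36 against 0.41.

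**Figure D4:**
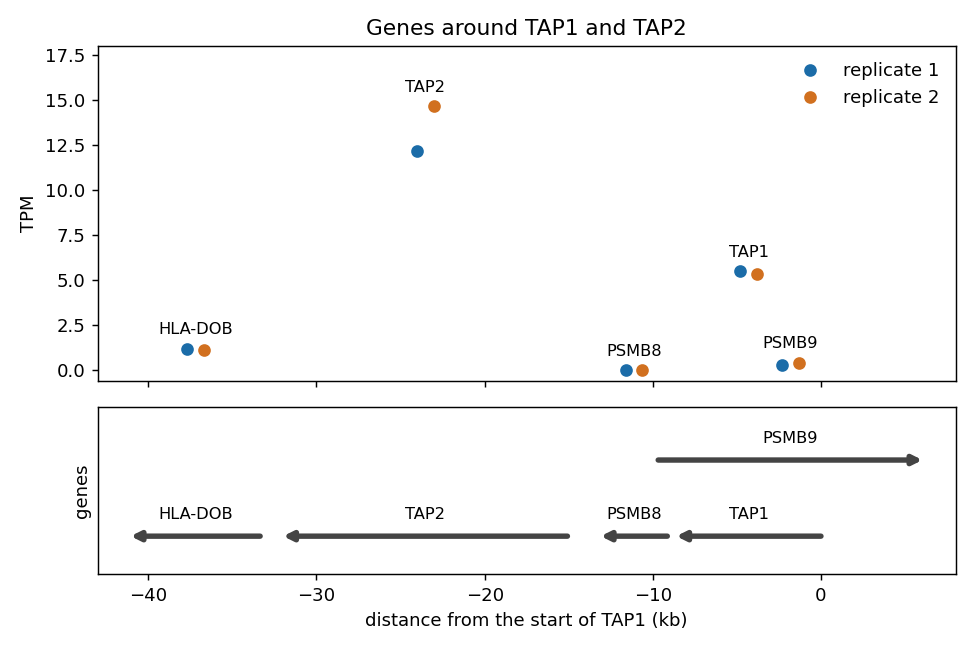
Upper panel, TPM of the genes around TAP1 and TAP2 in replicate 1 (blue) and replicate 2 (orange), drawn at the middle of each gene; lower panel, the annotated genes as arrows in the direction of transcription, by distance from the start of TAP1 in kb. TAP2 (12.2 and 14.6) and TAP1 (5.50 and 5.36) stood above HLA-DOB, PSMB9 and PSMB8, which was at 0.

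Of the peptide trimming genes 4 of 5 passed, from ERAP1, an aminopeptidase of the endoplasmic reticulum, at 6.25 ± 0.481 to THOP1, a cytosolic oligopeptidase, at 77.6 ± 12.9 (SD, n = 2). ERAP2, a relative of ERAP1, did not pass, with a TPM of 0.86 and 1.33 from 16 and 20 counts. LNPEP, an aminopeptidase of endosomes, differed between the libraries, with 468 counts in replicate 1 and 584 in replicate 2 (log2 ratio 0.40, adjusted p = 0.000722, exact binomial test). All 5 loading chaperone genes passed, from TAPBPL, a tapasin relative that edits peptides, at 2.55 ± 0.629 to CANX, the general chaperone calnexin, at 984 ± 32.2 (SD, n = 2). The dedicated tapasin gene TAPBP was thus 4.86-fold above TAPBPL and 81.3-fold below CANX. CANX and CALR differed between the libraries in counts by small amounts (log2 ratios 0.07 and -0.07, adjusted p = 0.00991 and 0.0487, exact binomial test). For CANX the TPM ran the other way, at 1006 in replicate 1 and 961 in replicate 2.

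Among the regulators of the class I promoters 12 of 13 passed, from IRF2 at 4.0 ± 1.37 to RELA, a subunit of NF-kappaB, at 76.3 ± 2.26 (SD, n = 2). The genes of the RFX complex, which occupies the X box, had TPM values of 52.5 for RFX5, 44.3 for RFXANK and 9.42 for RFXAP, each above that of NLRC5, which the complex recruits. RFX5 differed between the libraries, with 1125 and 906 counts (log2 ratio -0.23, adjusted p = 0.0115, exact binomial test). CIITA, the class II counterpart of NLRC5, was the regulator that did not pass, at 0.78 and 0.50, and NLRC5 and CIITA were thus both near or below the threshold.

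All 10 genes of interferon reception and signalling passed, beside 63.7% of all protein-coding genes. They ran from JAK2 at 2.20 ± 0.0636 to TYK2 at 73.7 ± 0.636 (SD, n = 2). JAK2 differed between the libraries in counts (35 and 65 counts, adjusted p = 0.0359, exact binomial test). Its length-scaled level did not show this difference, with a TPM of 2.24 and 2.15. Of 23 interferon-stimulated genes 8 passed, or 34.8%, beside the same 63.7%. They ran from ISG15 at 1.97 ± 0.778 to USP18 at 17.9 ± 0.474 (SD, n = 2), and 5 of the 23 had no counts in either replicate. The median of this list was a TPM of 0.335, against 13.4 for the 9 members. The difference between these lists was not tested.

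**Figure D5:**
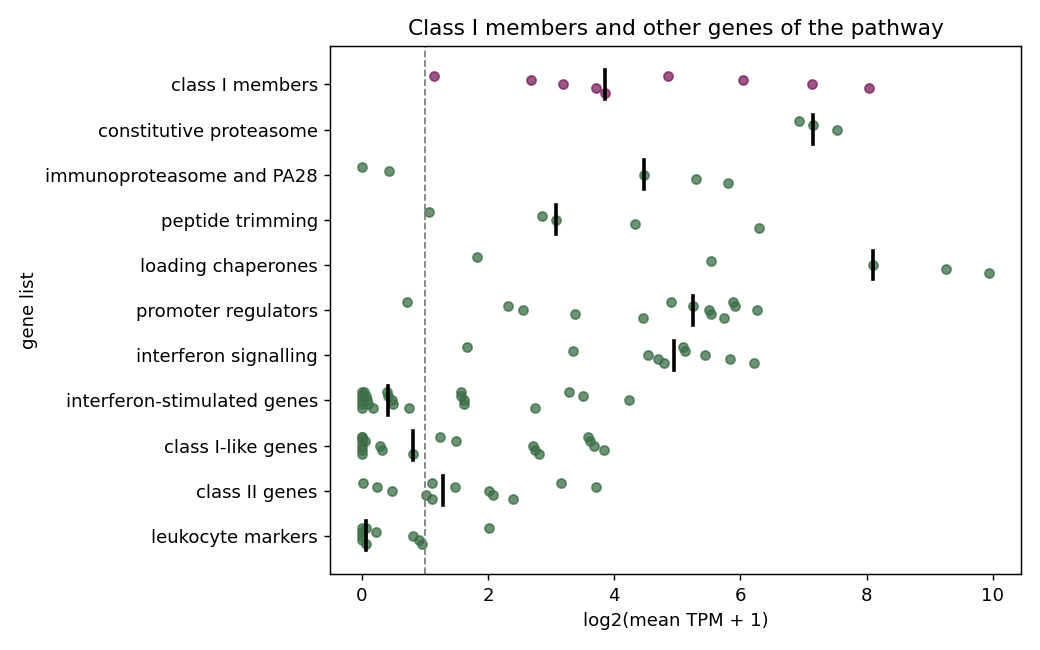
Level of each gene, as log2(mean TPM + 1), for the members (purple) and for lists of other genes (green), with the median of each list as a black bar and a mean TPM of 1 as the dashed line. The members' median TPM of 13.4 lay below those of the constitutive proteasome (142) and the loading chaperones (275) and above that of the interferon-stimulated genes (0.335).

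Relatives of the class I heavy chains were compared with the members to see whether they were present at similar levels. Of 19 class I-like genes 9 passed the threshold, or 47.4%, beside 63.7% of all protein-coding genes. They ran from RAET1G at 1.36 ± 0.0778 to ULBP3 at 13.3 ± 0.148 (SD, n = 2). MICA, MICB and the ULBP genes, ligands of the activating receptor NKG2D, had mean TPM values of 11.3 for MICA, 5.58 for MICB, 1.83 for ULBP1 and 6.05 for ULBP2. None of the class I-like genes reached the level of HLA-E, HLA-B or HLA-C. Some did reach that of lower members. ULBP3 (13.24 and 13.45 in the replicates) and MICA (11.3 in each) lay above HLA-F (9.54 and 6.79) and TAP1 (5.50 and 5.36). ULBP3 also overlapped TAP2 (12.2 and 14.6) and TAPBP (13.3 and 11.1), whereas MICB, ULBP1 and ULBP2 lay below HLA-F in both replicates. HLA-G, a heavy chain of the placenta, did not pass, with 7.51 and 5.33 counts.

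Of 12 class II genes 8 passed, or 66.7%, which is close to the 63.7% of all protein-coding genes. They ran from HLA-DPB1 at 1.03 ± 0.0283 to HLA-DQB1 at 12.1 ± 0.841 (SD, n = 2). HLA-DRA, which encodes the invariant alpha chain of HLA-DR, had 1 and 2 counts, and CD74, the invariant chain of class II molecules, had 10 and 6. B2M, HLA-C, HLA-B and HLA-E each lay above every class II gene listed in both replicates. TAP2 (12.2 and 14.6) and TAPBP (13.3 and 11.1) overlapped the values of HLA-DQB1 (12.7 and 11.5), and HLA-F, TAP1 and NLRC5 lay below them.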

How the data were processed

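Poly(A)+ RNA of HEK293T cells (2 replicates, 1 group by the labels) was sequenced with 50 bp reads. Per the submitters' processing notes, Trimmomatic 0.36, STAR 2.6.1c and RSEM 1.3.1 were used with GRCh37 (hg19). The study's methods name featureCounts and Ensembl release 87, whereas the columns deposited are those of RSEM, so they were read as such. The authors deposited estimated counts, in which a read matching several genes is divided among them. The deposited TPM corrects for transcript length and sums to a fixed total, and the deposited FPKM corrects for length and library reads. Also deposited were 2 kinds of score, the posterior SD of each count and the limits of a TPM interval. The bounds belong to the posterior mean, and the deposited TPM lay inside its own bounds for 6 of 9 members in each replicate. Transcript lengths were deposited by the authors with the counts. Strand use in counting was not given in the sources used here. The authors' pooled values gave no result here.

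Symbols and GRCh37 coordinates came from GENCODE release 44 lifted to GRCh37, which matched 96.1% of gene identifiers. Detection meant a TPM of 1 or more in each replicate. The replicates were set against each other with an exact two-sided binomial test (scipy 1.17.1) of rounded counts against TMM-scaled library sizes (edgeR 4.0.16, R 4.3.3), adjusted by Benjamini-Hochberg over genes whose counts summed to 10 or more, with a threshold of 0.05. Log2 ratios used 0.5 added counts. A percentile is the percent of protein-coding genes with a lower mean TPM. No test between conditions was possible with 1 group.

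All members were named. Of other lists, the highest and lowest detected genes, those that differed between libraries, and genes of peptide supply, trimming, loading and regulation could be named; MICA, MICB, ULBP1, ULBP2, HLA-G, HLA-DRA, CD74 and single markers were named after their values were seen. Single values of some listed genes are not reported here. Of endothelial markers 0 of 3 were detected, of fibroblast markers 1 of 5 (COL1A1, TPM 8.89). Members and lists were chosen with earlier results of these data known. Alternatives were other thresholds, units, library sizes, filters and lengths, and leaving out each replicate.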

Additional observations from a re-analysis of the deposited data

How the results depend on the processing

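The number of members detected was 8 or 9 under every threshold and unit tried and without either replicate. It became 9 with a TPM of at least 0.1, with the posterior mean TPM (chosen after seeing the data) and without replicate 1, each time by the addition of NLRC5. The number of pathway genes detected ranged from 24 to 30 around 27, and from 27 to 28 when a replicate was left out. No member differed between the libraries with RLE or total-count library sizes, with a minimum sum of 1 or 50 counts, or among genes with whole counts, where 3 members could be tested. The ratio of B2M to the heavy chains was 1.05 by the posterior mean, 1.28 against HLA-B and HLA-C alone, 0.353 in estimated counts (chosen after seeing the data), and 1.06 to 1.11 in single replicates. The ratio of TAP1 to TAP2 was 0.248 in estimated counts and 0.366 to 0.452 in single replicates. The members' share was 0.0416% of estimated counts, against 0.0521% to 0.0548% of the TPM in single replicates. Their median TPM was 13.3 to 14.6 in single replicates and 11.2 with the longest listed transcript as length (chosen after seeing the data), and their median percentile was 47.9 among detected genes of all types against 59.7 among protein-coding genes. The separated neighbours numbered 7 by a distance of 2 SD on log2(TPM + 1) or log2(TPM + 0.1), against 5. No member passed 1.2 or 2 times the counting error, again without a share over all genes to set beside this. Values in counts differ from those in TPM by the length scaling alone. For the other values the cause was not tested.

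No paired analysis was possible because only 1 group was sampled. With 2 replicates the SD is itself poorly known. NLRC5, HLA-F and TAP1 have the fewest counts and are the members for which depth limits precision most.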

Other observations

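Class I pseudogenes and the neighbours of the members were listed to see what else was read at these loci. Of 10 class I pseudogenes with a row, HLA-L alone passed a TPM of 1 in both replicates, at 2.6 and 1.29 from 58.3 and 42.0 counts. HLA-Z had the highest mean of them, which rests on 1 count in replicate 2. HLA-F-AS1, which overlaps HLA-F on the opposite strand, held 26.9 and 24.8 counts beside the 61.9 and 46.2 of HLA-F, and since the use of strand in counting is not given, reads of the overlapping parts cannot be told apart. PATL2, whose annotated start lies 35 bases from that of B2M on the opposite strand, had no counts in either replicate, whereas B2M had 933 and 892. ZBTB22, next to TAPBP, had 168 and 137 counts.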
